A study of Mus musculus with 4 samples.

Results

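The 57 genes described here encode the actin cytoskeleton and the machinery of leukocyte movement: actins and monomer-binding proteins, the Arp2/3 complex, coronins, capping and bundling proteins, integrin linkers, myosins and vimentin. They were taken by name from a fixed list, which was chosen with earlier results of these data known. All 57 had a row among the 18751 distinct gene names of the count table. RNA was sequenced from PMN-MDSCs, the polymorphonuclear kind of myeloid-derived suppressor cell, which resembles a neutrophil and dampens T cell responses to tumours. Of the libraries, 2 came from CD300ld KO mice, in which a CD300 receptor gene is disrupted, and 2 from wild-type (WT) mice. Every mouse was C57BL/6, aged 8 weeks, and had borne a B16-F10 tumour, grown under the skin from a mouse melanoma line, until day 15. The cells were enriched magnetically with a neutrophil kit, the tissue of origin is not given in the sources used here, and the sources name neither the part of the gene removed nor the control litter.

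Neutrophils crawl by polymerising actin at the leading edge. Profilin and thymosins hold and deliver monomers, WASP and WAVE proteins switch on the Arp2/3 complex to build branched filaments, capping proteins stop filament ends, and cofilin and gelsolin cut old filaments. Talin, kindlin-3 and vinculin couple filaments to the integrins that grip a vessel wall.

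Actin and motility RNA was lower in KO libraries. Of the 57 genes, 55 passed the filter on low counts, and in edgeR's quasi-likelihood test 17 were lower in KO and 0 were higher at an adjusted p below 0.05. Over all 7685 genes tested, 5.97% were called, 3.27% lower and 2.71% higher. The members are abundant: 45 of the 55 lay among the 1922 tested genes with the highest levels. Of those 45 members 37.8% were lower, beside 7.54% of the 1922 genes. At an unadjusted p below 0.05, 28 members were lower and 0 higher, and DESeq2 called 14 lower and 0 higher, limma-voom 19 lower and 0 higher. The median log2 fold change (KO over WT) of the 55 was −0.46, beside 0.0025 for all tested genes, and 45 of the 55 were negative, beside 49.7% of all tested genes. In 34 of the 55 both KO libraries lay below both WT libraries, in 3 above, and in 18 they overlapped; of all tested genes 48.2% did not overlap, 23.6% with KO lower.

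**Figure D1:**
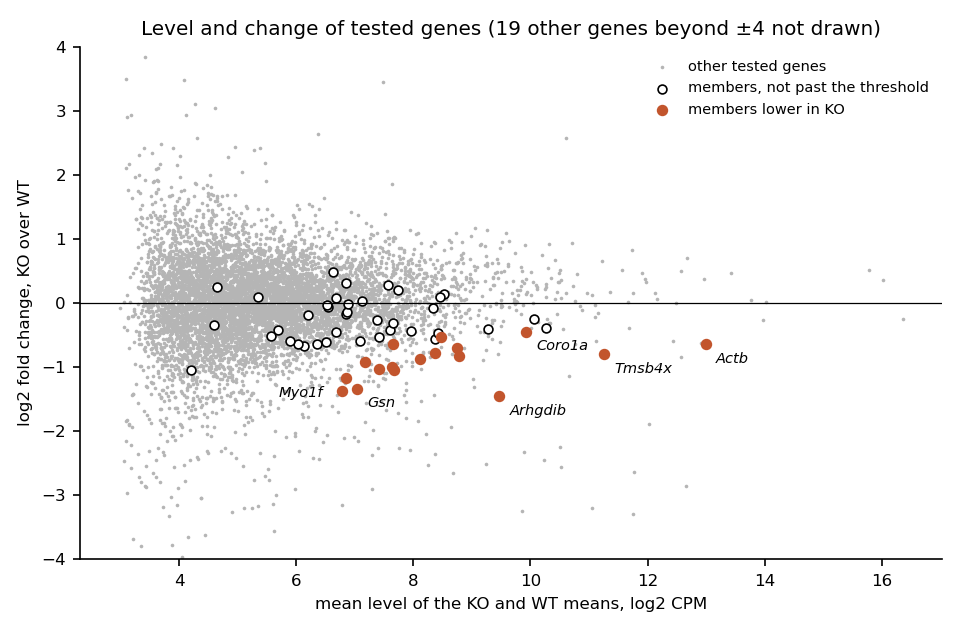
Each point is a tested gene, with the log2 of the mean CPM of KO and WT on the horizontal axis and the log2 fold change, KO over WT, on the vertical axis. The 17 filled points are actin and motility genes lower in KO, the open points the other 38 tested members, and grey points all other genes, of which 19 lie beyond ±4 and are not drawn. Actb is the most abundant member and Arhgdib the one with the largest change.

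Summed over the 57 genes, the counts made up 1.83% and 1.84% of the KO libraries, against 2.57% and 2.83% of the WT libraries. Without Actb the summed level was 12562 and 12360.3 CPM in KO and 17035 and 18648 CPM in WT, and 16 of 54 tested genes were lower. Total counts were 830931 and 835510 for the KO libraries, against 674599 and 920839 for the WT libraries. Both pairs of the same genotype varied beyond counting noise (chi-square divided by genes, 2.60 in KO and 3.09 in WT), and each library was kept as 1 sample. Whether the libraries are from different animals is not stated in the labels; the p-values rest on the spread between them, which may be technical. In simulated libraries of this depth, with 7389 genes of all levels, the test recovered 29.3% of 2-fold and 81.6% of 4-fold changes.

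The preparation is mixed, and its makeup by marker genes differed between genotypes. All 14 markers of the labelled cell type, neutrophils, were detected in every library. They took 0.477% and 0.467% of counts in KO, against 3.10% and 3.36% in WT. Of the 14 markers 11 were lower, beside 3.27% of all tested genes. Monocyte and macrophage markers took 0.0558% and 0.0750% in KO and 0.147% and 0.163% in WT, with 6 of 13 lower. Erythroid markers took 20.8% and 19.6% in KO and 15.3% and 16.3% in WT. Of these 13 markers 7 were higher, beside 2.71% of all tested genes. B cell markers took 0.559% and 0.638% in KO and 0.427% and 0.508% in WT, with none of 10 past the threshold but 3 higher at an unadjusted p below 0.05 in edgeR. T and NK cell markers took 0.0416% and 0.0486% in KO and 0.0353% and 0.0418% in WT, with 10 of 11 log2 fold changes positive, 1 gene (Nkg7) lower and 3 higher at an unadjusted p below 0.05 in edgeR. No marker of the neutrophil, monocyte and macrophage or erythroid lists was at 0 in any library, and of the B cell list Vpreb1 alone was. The part of these shifts in the actin results was not tested, and in bulk RNA fewer cells of a type and less RNA per cell cannot be told apart. The targeted gene was not analysed here, so the genotype labels were not checked against it.

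Actin itself led the list by level. Actb, the cytoplasmic β-actin gene, had 6572 and 6176 CPM (counts scaled to the library's TMM-adjusted total over tested genes) in KO libraries, against 9595 and 10258 CPM in WT libraries. Its log2 fold change was −0.64 ± 0.090 (SE, adjusted p = 0.000299), a level 1.56-fold lower in KO. Actg1, encoding the γ-actin that differs from it by a few residues, had 118 and 105 CPM in KO and 249 and 212 CPM in WT, and fell by 1.04 ± 0.20 on the log2 scale (adjusted p = 0.00351). For both genes the KO libraries lay below the WT libraries, as in 23.6% of all tested genes. Both were called on these same libraries, so the lack of overlap is no separate evidence. Since the coding sequences are near-identical, reads may have been split between them in the authors' counting.

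Log2 fold changes of the monomer-binding genes had both signs, only Tmsb4x passed the threshold, and differences between these genes were not tested. Tmsb4x, encoding thymosin β4, the main actin-sequestering peptide of leukocytes, had 1705 and 1868 CPM in KO libraries and 2907 and 3301 CPM in WT libraries. It fell by 0.80 ± 0.11 on the log2 scale (adjusted p = 0.000302). Its paralogue Tmsb10 had 157 and 127 CPM in KO and 117 and 159.5 CPM in WT, with overlapping genotypes and a log2 fold change of 0.027 ± 0.22 (adjusted p = 0.972). Pfn1, encoding profilin, which loads monomers onto growing ends, had 987 and 957 CPM in KO and 1082 and 1223 CPM in WT (−0.25 ± 0.12, adjusted p = 0.304). Cfl1, encoding the severing protein cofilin, had −0.38 ± 0.12 (adjusted p = 0.0800), and passed the threshold without WT library 1 (adjusted p = 0.00470). Cap1, a cofilin partner that recycles monomers, stood at 107 and 124 CPM in KO and 79.9 and 85.3 CPM in WT, with a log2 fold change of 0.48 ± 0.23 that did not pass (adjusted p = 0.278). Ssh2, a phosphatase that activates cofilin, and Twf2, a twinfilin, had 0.31 ± 0.25 and −0.63 ± 0.28, neither past the threshold. Twf1, the other twinfilin, had 11 and 9 counts in KO libraries against 6 and 5 in WT libraries, too few to test.

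**Figure D2:**
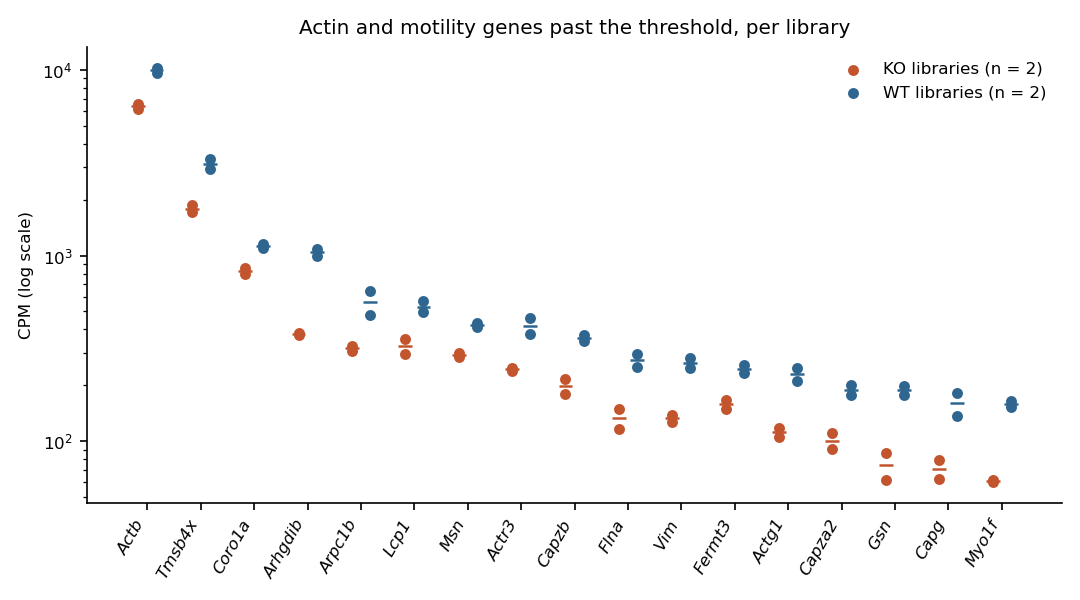
CPM on a log axis of the 17 actin and motility genes past the threshold, ordered by WT level, with each library a point and the mean of 2 libraries a bar, KO left of WT. Both KO libraries lie below both WT libraries for all 17 genes, beside 23.6% of all tested genes. The 17 were picked by the test on these same libraries, so the lack of overlap is no separate evidence. Means run from Actb with 6374 CPM (KO) and 9927 CPM (WT) to Myo1f with 61.0 CPM (KO) and 158 CPM (WT).

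The Arp2/3 complex nucleates branches from the sides of existing filaments, and all 8 of its genes listed here had a negative log2 fold change, between −0.83 and −0.19. Of these 2 passed the threshold. Among all tested genes 49.7% were negative and 3.27% were called lower. Arpc1b, a WD-repeat subunit prominent in blood cells, had 306 and 327 CPM in KO libraries, against 481 and 640.3 CPM in WT libraries, and fell by 0.83 ± 0.16 on the log2 scale (adjusted p = 0.00504). Actr3, encoding the actin-related protein Arp3, had 249 and 239 CPM in KO and 461 and 377 CPM in WT, and fell by 0.77 ± 0.16 (adjusted p = 0.00813). Arpc2 lay just outside the threshold, with 247 and 289 CPM in KO and 358 and 433 CPM in WT (−0.57 ± 0.17, adjusted p = 0.0582), and passed it without WT library 1 (adjusted p = 0.00686). Actr2, Arpc1a, Arpc4 and Arpc5 had log2 fold changes of −0.64, −0.61, −0.59 and −0.43, none past the threshold. Each had both KO libraries below both WT libraries, as did 23.6% of all tested genes. Arpc3 overlapped between genotypes, with 61.7 and 77.3 CPM in KO libraries against 53.8 and 102 CPM in WT libraries, and its sign turned to 0.36 without WT library 2. The summed level of the 8 genes was 1269.5 and 1415 CPM in KO and 2003 and 2182 CPM in WT, 0.641 times the WT level in KO.

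Upstream of the complex, none of the 4 genes for activators or a partner that stabilises them passed the threshold. Was, encoding the Wiskott-Aldrich protein of blood cells, had 47.9 and 41.0 CPM in KO and 55.3 and 63.1 CPM in WT (−0.42 ± 0.31, adjusted p = 0.527). Wasf2, the WAVE2 gene, had 225 and 229 CPM in KO and 215 and 181 CPM in WT (0.21 ± 0.18, adjusted p = 0.602). Wipf1, which stabilises the Wiskott-Aldrich protein, and Hcls1, a cortactin relative of blood cells, had −0.35 ± 0.48 and −0.46 ± 0.23 and did not pass.

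Coronins bind filaments and turn branches over. Coro1a, the leukocyte coronin, had 860.2 and 792 CPM in KO libraries and 1097 and 1154 CPM in WT libraries, a fall of 0.45 ± 0.12 on the log2 scale (adjusted p = 0.0440). That call ended without KO library 1 (adjusted p = 0.129), without KO library 2 (adjusted p = 0.317), without WT library 2 (adjusted p = 0.0561), in DESeq2 (adjusted p = 0.0581) and with a filter of 1 CPM in 2 libraries (adjusted p = 0.0926). Coro1b and Coro1c had −0.31 ± 0.18 and 0.10 ± 0.37, neither past the threshold.

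Capping, severing and bundling proteins held the most calls of any role, with 6 of 10 lower in KO and 0 higher (also 0 at an unadjusted p below 0.05 in edgeR). Of all tested genes 3.27% were lower and 2.71% higher. The median log2 fold change of the role was −0.89, beside 0.0025 for all tested genes. Gsn, encoding gelsolin, which severs and caps filaments in the presence of calcium, had 86.9 and 61.6 CPM in KO libraries, against 198 and 177 CPM in WT libraries, 2.52-fold lower in KO (log2 fold change −1.34 ± 0.23, adjusted p = 0.00168). Capg, a gelsolin relative that caps without severing and is abundant in macrophages, had 63.0 and 79.7 CPM in KO and 137 and 183 CPM in WT, 2.25-fold lower (adjusted p = 0.00650; 0.0547 without WT library 2). In both genes, called on these same libraries, each KO library lay below each WT library, as in 23.6% of all tested genes.

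The heterodimeric capping protein sits on growing filament ends. Its β chain gene Capzb had 215 and 179.9 CPM in KO and 349 and 371 CPM in WT and fell by 0.87 ± 0.17 on the log2 scale (adjusted p = 0.00450). The α chain gene Capza2 had 111 and 90.5 CPM in KO and 178 and 201 CPM in WT and fell by 0.92 ± 0.21 (adjusted p = 0.0125; 0.0871 without KO library 2 and 0.0556 without WT library 2). The other α chain gene, Capza1, had −0.67 ± 0.31 and did not pass (adjusted p = 0.250), but passed without KO library 1, at −1.17 (adjusted p = 0.0470).

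Among crosslinkers, Flna, encoding filamin A, which ties filaments into networks and to membrane receptors, had 117 and 148 CPM in KO libraries, against 252 and 295 CPM in WT libraries. It fell by 1.04 ± 0.19 on the log2 scale (adjusted p = 0.00287). Lcp1, encoding the leukocyte bundler L-plastin, had 295 and 355 CPM in KO and 495 and 566 CPM in WT and fell by 0.71 ± 0.16 (adjusted p = 0.0106; 0.117 without KO library 1). Both genes, called on these same libraries, had KO libraries below WT libraries, as in 23.6% of all tested genes. Actn4, an α-actinin, had 356 and 372 CPM in KO and 326 and 357 CPM in WT (0.091 ± 0.15, adjusted p = 0.823). Lsp1, a leukocyte filament-binding protein, had 394 and 379 CPM in KO and 315 and 382 CPM in WT (0.14 ± 0.16, adjusted p = 0.703). In both the genotypes overlapped. Actn1 had 5 and 15 counts in KO libraries against 10 and 31 in WT libraries (−1.04 ± 0.60, adjusted p = 0.392).

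Arhgdib had the smallest p of all members and ranked 22nd of the 7685 tested genes by p. Its level was 383 and 375 CPM in KO libraries, against 999 and 1083 CPM in WT libraries, 2.75-fold lower in KO (log2 fold change −1.46 ± 0.14, adjusted p = 3.66e-06). Under the 11 alternatives its log2 fold change ran from −1.53 to −1.40. Cdc42, which sets cell polarity, had 296 and 281 CPM in KO libraries, against 387 and 411 CPM in WT libraries. Its KO libraries lay below its WT libraries, as in 23.6% of all tested genes, and it did not pass the threshold (−0.47 ± 0.15, adjusted p = 0.0920). Dock2 and Elmo1, which form an exchange factor for Rac, had −0.17 ± 0.24 and 0.083 ± 0.24, with overlapping genotypes.

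**Figure D3:**
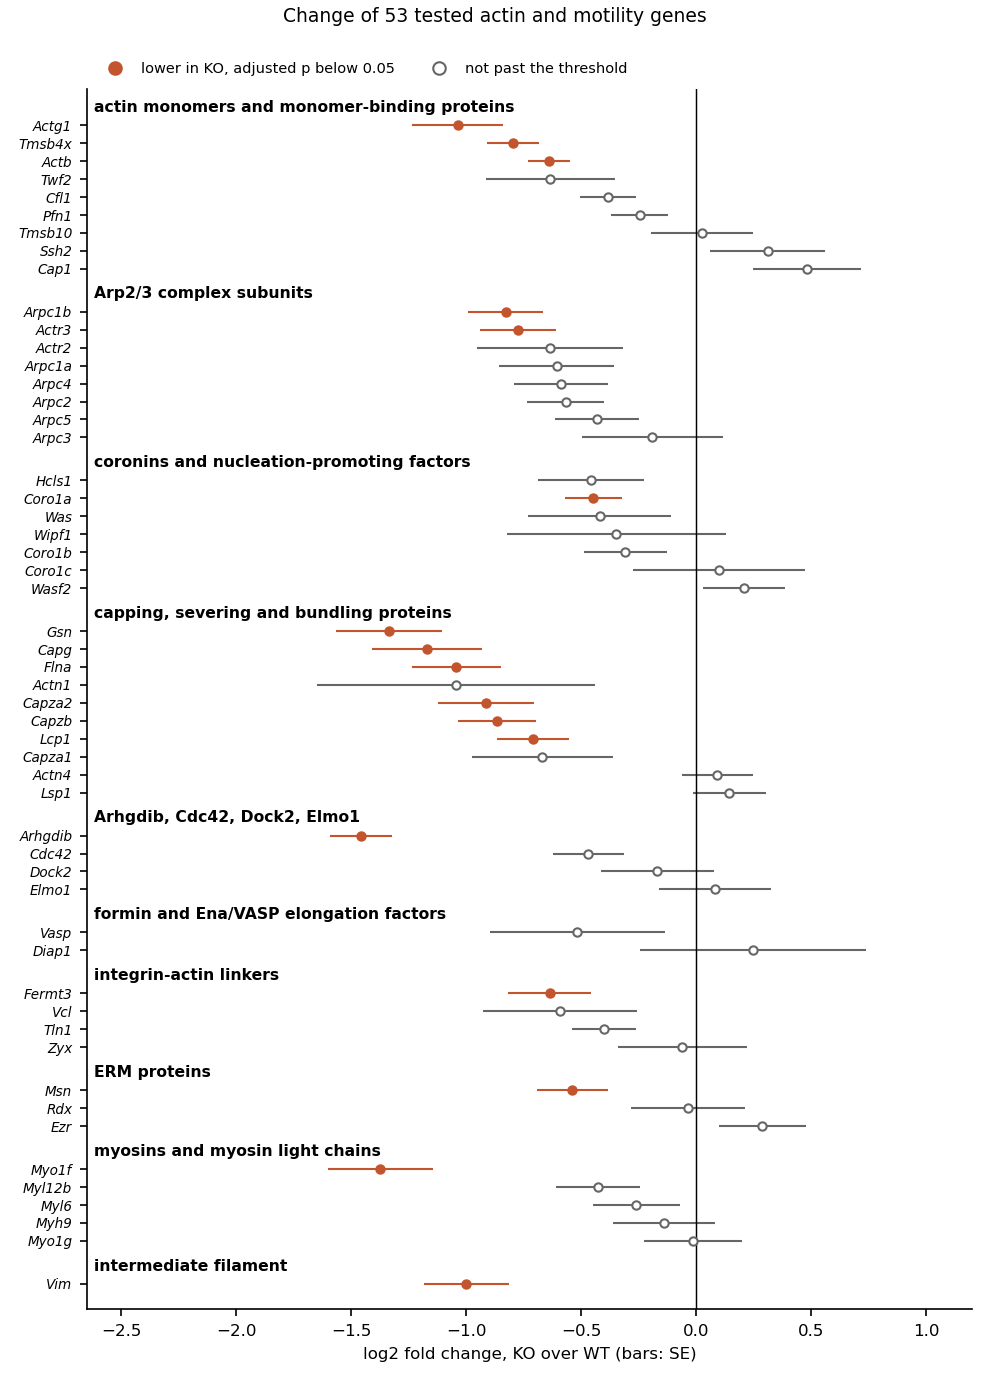
Log2 fold change, KO over WT, with its SE, of 53 tested actin and motility genes, grouped by role or by name and ordered by size within it. Filled points are the 17 genes lower in KO. Arhgdib at −1.46, Myo1f at −1.37 and Gsn at −1.34 lie farthest left among the called genes, and Cap1 at 0.48 farthest right without passing the threshold.

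The filament elongation factors were the least expressed role. The formin gene Diap1 had 30 and 14 counts in KO libraries against 13 and 23 in WT libraries, and Vasp, encoding a protein that speeds growth at filament ends, had 37 and 27 in KO libraries against 23 and 68 in WT libraries. Their log2 fold changes were 0.25 ± 0.49 and −0.52 ± 0.38, neither past the threshold, with overlapping genotypes. Evl, of the Vasp family, had 4 and 5 counts in KO libraries against 2 and 8 in WT libraries and was not tested.

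Of the proteins that link integrins to actin, only Fermt3 passed. It encodes kindlin-3, the blood-cell kindlin needed to activate integrins, and had 166 and 149.7 CPM in KO libraries against 232 and 258 CPM in WT libraries (−0.64 ± 0.18, adjusted p = 0.0491). The call ended without KO library 1 (adjusted p = 0.0876), KO library 2 (0.242) or WT library 2 (0.207), and in DESeq2 (0.185), with library totals only (0.0531) and with a filter of 1 CPM (0.0726). Tln1, encoding talin, which opens integrins together with kindlin, had 569 and 499.8 CPM in KO and 671 and 738 CPM in WT (−0.40 ± 0.14, adjusted p = 0.114; 0.0420 without WT library 1). Vcl, the vinculin gene, had −0.59 ± 0.33 and Zyx, the zyxin gene, −0.060 ± 0.28, with overlapping genotypes.

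ERM proteins fasten filaments to the plasma membrane, and 1 of their 3 genes passed the threshold. Msn, encoding moesin, the leukocyte form, had 298 and 284 CPM in KO libraries and 432 and 414 CPM in WT libraries (−0.54 ± 0.15, adjusted p = 0.0484). Its call was lost whichever library was left out, with adjusted p of 0.148 and 0.244 without KO libraries 1 and 2 and 0.0880 and 0.0592 without WT libraries 1 and 2. It was also lost in DESeq2 (adjusted p = 0.128) and with the filter of 1 CPM (0.0768). Ezr, encoding ezrin, had 229 and 186 CPM in KO and 181 and 159.5 CPM in WT (0.29 ± 0.19, adjusted p = 0.464). Every KO value was above every WT value, as in 24.5% of all tested genes. Rdx, encoding radixin, had −0.036 ± 0.25.

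The class I myosins Myo1f and Myo1g are both motors of blood cells that tie filaments to membrane. Myo1f, known from mouse knockouts to act in neutrophil adhesion and migration, had 60.5 and 61.6 CPM in KO libraries, against 152 and 164 CPM in WT libraries, 2.59-fold lower (log2 fold change −1.37 ± 0.23, adjusted p = 0.00129). Myo1g had 121 and 115 CPM in KO and 123 and 115 CPM in WT, a log2 fold change of −0.013 ± 0.21. The non-muscle myosin II heavy chain gene Myh9 had −0.14 ± 0.22, and the light chain genes Myl12b and Myl6 had −0.43 ± 0.18 and −0.26 ± 0.19, none past the threshold. Vim, the intermediate filament gene vimentin, had 139 and 127 CPM in KO and 249 and 280.3 CPM in WT and fell by 1.00 ± 0.18 on the log2 scale (adjusted p = 0.00283).

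Ratios of related genes within a library do not depend on how libraries are scaled. The Myo1f to Myo1g count ratio was 0.503 and 0.539 in KO libraries, against 1.24 and 1.42 in WT libraries, so that the more abundant of the pair was Myo1g in KO and Myo1f in WT by counts alone. Moesin to ezrin counts stood at 1.30 and 1.52 in KO and 2.38 and 2.59 in WT. For thymosins the Tmsb4x to Tmsb10 ratio was 10.8 and 14.7 in KO and 24.7 and 20.6 in WT. The Actb to Actg1 ratio was 55.2 and 58.5 in KO and 38.4 and 48.4 in WT. Of 14 pairs compared, 8 had no overlap between genotypes and 6 did, beside 48.2% of single tested genes without overlap. With 2 libraries a genotype the smallest p an exact permutation test can give is 0.333, two-sided, which those 8 reached, so this test could not reach 0.05 for any pair. The Arpc1b to Arpc1a ratio overlapped, at 4.02 and 4.81 in KO and 3.85 and 6.69 in WT, as did Capza1 to Capza2 at 0.638 and 0.430 in KO and 0.433 and 0.477 in WT.

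**Figure D4:**
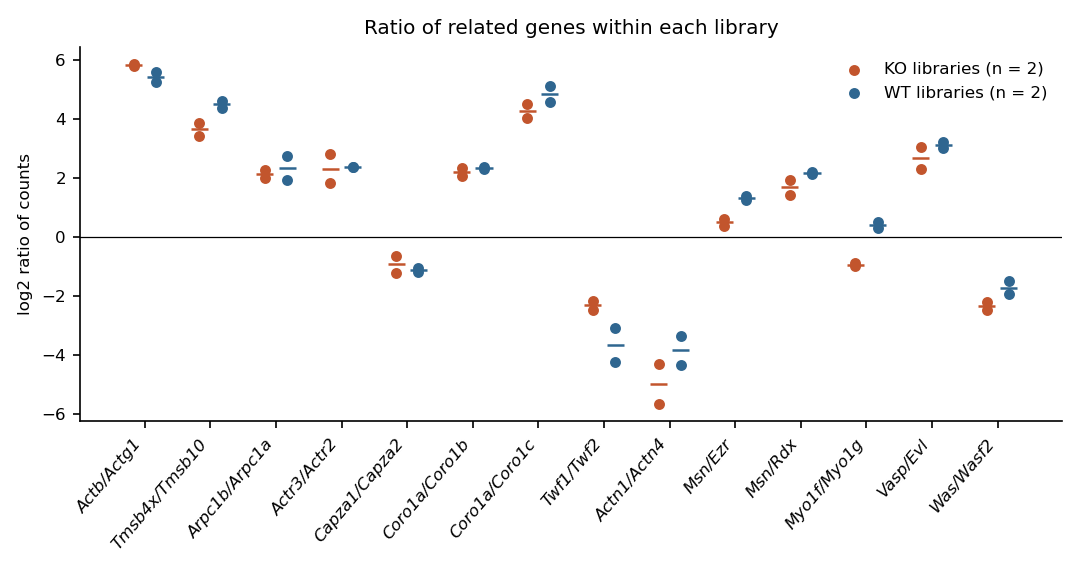
Log2 ratio of counts of 14 pairs of related actin and motility genes in each library, KO left of WT, with bars at the mean of 2 libraries. The Myo1f to Myo1g points lie below 0 in KO and above 0 in WT; 8 of the 14 pairs have no overlap between genotypes, beside 48.2% of single tested genes.

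Levels were also set against transcript length, taken as the longest coding transcript in GENCODE M21. Actb led with 3320 CPM per kb in KO and 5170.1 CPM per kb in WT, followed by Tmsb4x with 2068 in KO and 3593 in WT and Pfn1 with 1129 in KO and 1338 in WT. Arhgdib ranked 6th of 57 in KO and 4th in WT, Gsn 39th in KO and 31st in WT, and Ezr 24th in KO and 35th in WT. Counts did not grow with transcript length: the median was 38.8 counts over the 1693 tested genes with the shortest transcripts and 27.0 over the 1693 with the longest. Levels per kb of short and long genes are therefore compared only loosely.

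Actin genes are known targets of serum response factor (SRF), which binds the CArG box and answers to free actin through its cofactor MRTF-A (Mkl1). Promoter windows of 250 bases before to 50 after a start, from RefSeq on GRCm38.p6, were matched to 52 of the 57 genes; Actb, Twf2, Coro1b, Lsp1 and Diap1 had no window. A CArG box lay in at least 1 window of 4 of the 52 genes, 7.69%, against 1.51% of 5487 tested genes and 1.81% of all 27025 genes with a window. The 4 boxes are shown in capitals, with up to 20 bases on each side, because they are the SRF-type matches of the group.
Actg1, chr11:120348556-120348605, minus strand: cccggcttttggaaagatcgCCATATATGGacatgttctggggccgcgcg
Arpc4, chr6:113377863-113377892, plus strand: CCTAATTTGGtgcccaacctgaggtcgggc
Vcl, chr14:20929151-20929200, plus strand: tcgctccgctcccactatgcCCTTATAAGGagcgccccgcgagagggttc
Myl6, chr10:128493030-128493079, minus strand: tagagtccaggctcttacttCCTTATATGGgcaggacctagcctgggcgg
Of these 4 genes Actg1 was lower in KO and the others did not pass the threshold. Srf had 2 and 3 counts in KO libraries against 1 and 7 in WT libraries, too few to test. Mkl1 had 58 and 45 counts in KO libraries against 43 and 46 in WT libraries (0.13 ± 0.30, adjusted p = 0.879). Elk4, another SRF cofactor gene, had 40 and 46 counts in KO libraries against 21 and 40 in WT libraries (0.45 ± 0.34, adjusted p = 0.532).

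The 3 called genes with the largest change that have a window are shown over the 100 bases before their first listed start, with GC boxes (GGGCGG on either strand) in capitals. No CArG box lies in these stretches, and no match to GAGGAAGT on either strand. That is the only form of the core of PU.1, a factor of myeloid genes, that was searched. Shorter or looser PU.1 sites were not searched.
Arhgdib, chr6:136941900-136941999, minus strand: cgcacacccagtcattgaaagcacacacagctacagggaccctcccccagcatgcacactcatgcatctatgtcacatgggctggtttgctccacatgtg
Myo1f, chr17:33555607-33555706, plus strand: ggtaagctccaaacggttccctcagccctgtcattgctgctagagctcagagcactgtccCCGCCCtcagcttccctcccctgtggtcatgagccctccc
Gsn, chr2:35256259-35256358, plus strand: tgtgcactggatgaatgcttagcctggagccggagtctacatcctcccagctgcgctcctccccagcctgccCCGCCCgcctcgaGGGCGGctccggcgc
GC boxes were in the windows of 76.9% of the 52 genes, 69.9% of tested genes and 38.2% of all genes with a window. This form of the PU.1 core was in those of 3 members, Arpc1b and Elmo1 among them, 5.77%, against 4.26% of tested genes and 3.69% of all. Both strands were searched for all 3 motifs, and neighbouring GC boxes may overlap. Arhgdib and Gsn have 3 listed starts each.

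Other genes of the same pathways, from lists chosen by function, gave fewer calls than the members. Members and lists were chosen with earlier results of these data known, and this difference was not tested. Their levels were not matched. Of the 1922 tested genes with the highest levels, 45 of them members, 16% were called, beside 5.97% of all tested genes. Over all tested genes 3.27% were lower and 2.71% higher. Of 32 tested filament regulators outside the members, 4 fell and 1 rose, and the median log2 fold change was −0.26. Dstn, encoding destrin, a cofilin relative, had 66.8 and 45.9 CPM in KO and 151 and 153 CPM in WT and fell by 1.43 ± 0.25 on the log2 scale (adjusted p = 0.00184). Cnn2, a calponin gene, fell by 0.93 ± 0.17 (adjusted p = 0.00329) and Lasp1, a LIM and SH3 adaptor gene, fell by 1.27 ± 0.27 (adjusted p = 0.00737). Add1, encoding adducin, which caps filaments in the spectrin skeleton, rose by 0.67 ± 0.18 (adjusted p = 0.0375; 0.233 without KO library 2, 0.226 without WT library 2 and 0.106 in DESeq2). The other lower gene, Cotl1, was at −0.87 and lost its call whichever library was left out (adjusted p of at least 0.0770) and in DESeq2 (0.215).

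Of 11 tested partners of WASP, WAVE and Arp2/3, 2 were lower and 0 higher (1 at an unadjusted p below 0.05 in edgeR), and both encode the same WAVE complex subunit family. Cyfip2 fell by 0.80 ± 0.21 (adjusted p = 0.0261; 0.146 without KO library 1 and 0.137 without WT library 1), at 111 and 136 CPM in KO and 244 and 191 CPM in WT. Cyfip1 had 15 and 15 counts in KO libraries against 31 and 46 in WT libraries (−1.41 ± 0.40, adjusted p = 0.0460). Its call was lost whichever library was left out, with adjusted p of 0.0657 to 0.153. DESeq2 called 0 of this list. Of 13 integrin adaptors 1 was lower: Skap2 fell by 0.90 ± 0.25 (adjusted p = 0.0412), a call lost whichever library was left out (adjusted p of 0.0504 to 0.155) and in DESeq2 (0.213).

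Lists for other parts of the cytoskeleton were small, and their difference from the actin genes was not tested. None of 11 tubulin and microtubule genes was called in edgeR (2 higher and 1 lower at an unadjusted p below 0.05; 0 called in DESeq2), with a median of 0.027. Tubb5, the most abundant, had 1537 and 1758 CPM in KO and 1472 and 1490.1 CPM in WT (0.15 ± 0.12). Tuba4a had 1134 and 1147 CPM in KO and 1376 and 1461 CPM in WT (−0.32 ± 0.12, adjusted p = 0.141). The list of other myosins also holds regulators of myosin. Of its 10 tested genes none was called in edgeR (1 higher and 1 lower at an unadjusted p below 0.05), and 0 in DESeq2. Its most abundant genes, the regulator gene Ppp1cb and the light chain gene Myl12a, had −0.28 ± 0.22 and −0.10 ± 0.22. The lamin list held 4 genes, with the lamin B receptor gene Lbr among them. In this list Lmna, encoding lamins A and C of the nuclear envelope, rose by 0.88 ± 0.16 (adjusted p = 0.00229), at 411 and 409 CPM in KO and 217 and 227 CPM in WT. In the erythroid membrane skeleton 3 of 7 genes were higher and 0 lower (0 also unadjusted), namely Epb4.9 (dematin), Ank1 (ankyrin) and Spnb1 (β-spectrin), which rose by 0.90, 0.72 and 0.60 on the log2 scale. The calls of Spnb1 and Ank1 ended without KO library 2 (adjusted p = 0.0723 and 0.185), that of Spnb1 also without KO library 1 (0.0793) and that of Ank1 also without WT library 2 (0.116) and in DESeq2 (0.0587).

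**Figure D5:**
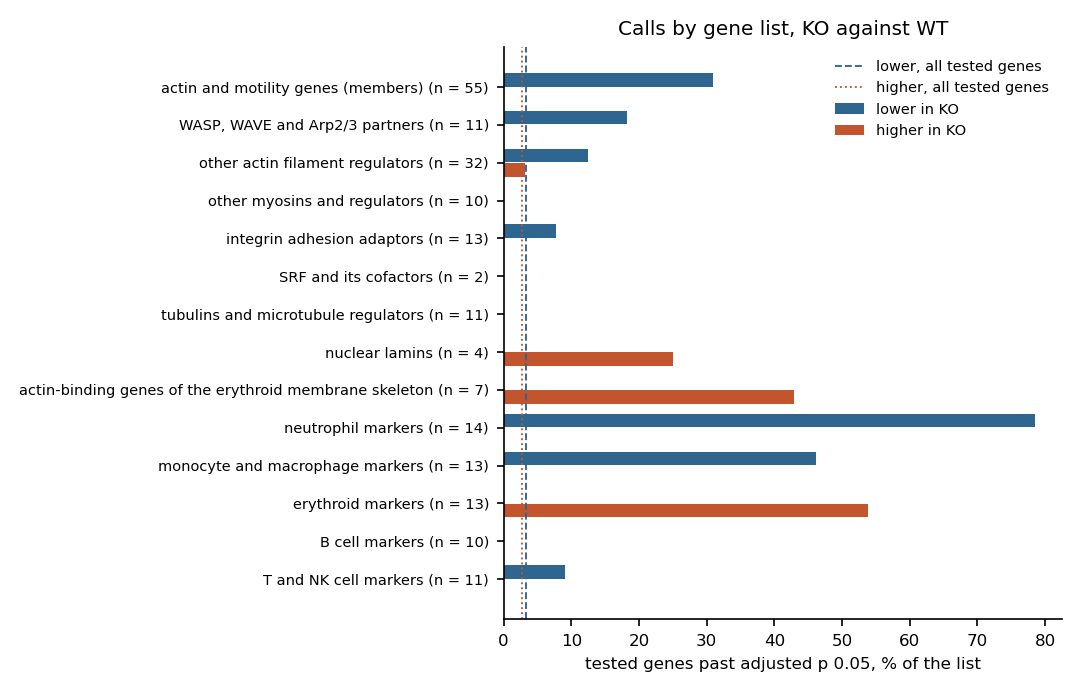
Percent of tested genes past an adjusted p of 0.05 in each list, lower and higher in KO, with dashed and dotted lines at the shares over all tested genes (3.27% lower, 2.71% higher). The 55 actin and motility genes have 30.9% lower, the neutrophil and the monocyte and macrophage markers more, and the erythroid lists have only higher calls.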

How the data were processed

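The authors deposited 1 table of raw counts per gene name. The submitters' processing notes name Bowtie 0.12.2, mm8 and mm9 without roles. No counting program, annotation or strand setting is given. Per the labels' protocols, TRIzol was used for RNA and a TruSeq kit for libraries. Of 21831 rows, 205 names stood on several rows with identical values, and each was kept once. Column names gave the genotype but not the sample, so library numbers are only names.

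KO was compared with WT on these counts using edgeR 4.0.16 (R 4.3.3): TMM scaling, filterByExpr (minimum count 10, total 15), quasi-likelihood test, Benjamini-Hochberg over all 7685 tested genes, threshold 0.05. The SE is the log2 fold change divided by the square root of F. CPM used TMM-scaled totals of tested genes, on which a count of 0 allows up to 3.32 to 4.61 CPM (3 counts, counting error only). The fit was tested on simulated data. Alternatives were RLE, library totals only, no filter, 1 CPM in 2 libraries, DESeq2 1.42.0, voom in limma 3.58.1, adjusted p below 0.1, no haemoglobin or mitochondrial genes, and each library left out. Ratios used a pseudocount of 0.5 (alternative 5). Members, roles, pairs and lists were chosen with earlier results of these data known. Full values were set for members past the threshold and the member with most counts per role, and, per list, for up to 4 called genes or the 2 most abundant. Other members given library values, and Cotl1, Nkg7 and Vpreb1, were picked after their values were seen. Srf was also given outside these rules. Some members and 1 list are not reported here.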

Additional observations from a re-analysis of the deposited data

How the results depend on the processing

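All 17 called members had a negative log2 fold change under all 11 refits, and 11 of them kept their call in every refit; Coro1a, Capg, Capza2, Lcp1, Fermt3 and Msn lost it in at least 1, and the cause was not tested. Between 12 and 19 members were lower, and 0 higher, in any refit. Leaving out each library in turn gave members' medians between −0.53 and −0.36. Those fits repeated the filter, and the lone library was assumed to vary like the others. No paired analysis was possible because the columns carry no number that ties libraries across genotypes.

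Over all genes, 124 were higher in DESeq2 and 331 at an adjusted p below 0.1, against 208. By role and list, lower calls of the coronin and activator role fell to 0 with 1 CPM in 2 libraries and in DESeq2; of integrin linkers to 0 with library totals only, 1 CPM and DESeq2; of ERM proteins to 0 with 1 CPM and DESeq2. WASP, WAVE and Arp2/3 partners had 1 lower with library totals only, 1 with 1 CPM and 0 in DESeq2. Other filament regulators had 0 higher in DESeq2 and 2 at an adjusted p below 0.1. Integrin adaptors had 0 lower with 1 CPM and in DESeq2 and 2 at 0.1. Tubulins had 1 higher and 1 lower with no filter, 1 lower with 1 CPM and 1 higher at 0.1. The cause was not tested.

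With 1 library left out, counts ran from 0 to 1 lower for partners of WASP, WAVE and Arp2/3, 1 to 3 higher for the erythroid skeleton, 0 to 2 lower for integrin adaptors, 1 to 2 higher for lamins, 0 to 1 higher for other filament regulators, 0 to 1 higher for other myosins, and 0 to 1 in each direction for tubulins. By role they ran from 0 to 1 lower for coronins and activators, 0 to 2 for integrin linkers, and stayed at 0 for ERM proteins. Role medians ran from −0.29 to 0.12 for ERM proteins, −0.49 to −0.30 for actin and monomer-binding genes, −0.97 to −0.72 for capping, severing and bundling genes, −0.50 to −0.23 for coronins and activators, −0.62 to −0.28 for integrin linkers and −0.34 to −0.22 for myosins.

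Signs turned only for genes that were not called, with log2 fold changes from −0.57 to 0.36 for Arpc3, −0.25 to 0.46 for Coro1c, −0.45 to 0.72 for Diap1, −0.54 to 0.12 for Dock2, −0.19 to 0.31 for Elmo1, −0.0040 to 0.29 for Lsp1, −0.0687 to 0.0252 for Myo1g, −0.29 to 0.16 for Rdx, −0.0862 to 0.61 for Ssh2, −0.19 to 0.27 for Tmsb10, −0.95 to 0.15 for Vasp, −0.73 to 0.22 for Wipf1, −0.40 to 0.41 for Zyx, −0.42 to 0.14 for Myl12a and −0.11 to 0.33 for Mkl1. Recovery by count level was not tested.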
